A study of Homo sapiens with 32 samples.

Results

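The genes described here encode the nuclear machinery that writes and first reads N6-methyladenosine (m6A) on mRNA, and the question asked of them was how 3 proteins of mRNA export, Alyref, Chtop and Nxf1, contacted their own transcripts. They were chosen by name, as 9 of the 64486 genes in the annotation: RBM15, RBM15B, METTL3, METTL14, WTAP, VIRMA (older symbol KIAA1429), ZC3H13, CBLL1 and YTHDC1. The list was drawn up after RBM15 had been seen to carry far more Chtop than Alyref tags, so that difference is described below without a test. Contacts were mapped by iCLIP, in which UV light joins protein to RNA in living cells, the protein is immunoprecipitated, and the base where reverse transcription stops is read as the contact. Each such read, counted once per molecular barcode, is a tag.

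TREX, which readies nuclear mRNA for export, contains Alyref and Chtop, and Nxf1 is the receptor that carries the mRNA out. HEK293T FlpIn cells, a human embryonic kidney line that takes a transgene at a single site, expressed Alyref-FLAG, Chtop-FLAG or Nxf1-FLAG, and the Control was labelled as a FLAG control with no factor named. The fusions were induced over 48 h with tetracycline, 10 ng/mL in the Alyref and Chtop lines and 5 ng/mL in the Nxf1 line, with no dose stated for Control, and all groups were precipitated with anti-FLAG antibody. Each group held 3 libraries, and the labels did not say whether these came from separate cultures, so p-values measure the spread between libraries, which may be technical. The fusion proteins came from a transgene and not from the native locus, and tags report crosslinks rather than RNA abundance, so that more transcript and more contact per transcript cannot be told apart.

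Depth differed widely. Alyref libraries held 81307 to 631704 tags and Chtop libraries 47052 to 538844, Nxf1 libraries ranged between 8134 and 179346, and Control libraries between 7017 and 46628, and replicate 1 was the shallowest of each group. The limit used for a count of 0, which is 3 tags, was worth 4.75 CPM in the deepest library and 428 CPM in the shallowest, where CPM stands for tags scaled to 1000000 tags in a library. Replicate 2 of every group was run on other HiSeq lanes than replicates 1 and 3, so lane and replicate number cannot be told apart. Replicates 1 and 2 also had a MiSeq run, which replicate 3 lacked. Within replicates 1 and 3 alone, with 2 libraries a group of which 1 is shallow, no member was called in any tested contrast. No member shared tags with another annotated gene on its strand.

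The m6A writer is built around METTL3, the catalytic methyltransferase, and METTL14, its partner that holds the RNA. WTAP anchors this pair to the larger regulatory complex, of which VIRMA is the scaffold, ZC3H13 a nuclear retention factor, CBLL1 (HAKAI) a RING-domain protein, and RBM15 and RBM15B the RNA-binding subunits that bring the writer to its targets. YTHDC1 is the nuclear reader of the mark and takes part in splicing and export of methylated mRNA.

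The sequences below show what a crosslinked position looked like in these genes. For each member with at least 3 factor tags at a single base, the base with the most is given in 21 nt of hg19 sequence on the gene strand, with the crosslinked base in capitals. No base of METTL14, WTAP or CBLL1 reached 3 tags.
RBM15, chr1:110883593-110883613, plus strand, exon 1, coding: tagagtagacTttgccgacac
RBM15B, chr3:51431601-51431621, plus strand, exon 1, 3′ UTR: tcctgggttaTtttggttcat
METTL3, chr14:21971882-21971902, minus strand, exon 2, coding: gatcctgagtTagagaagaag
ZC3H13, chr13:46626774-46626794, minus strand, exon 1, 5′ UTR: tcgttattttTcttcctgcga
YTHDC1, chr4:69201008-69201028, minus strand, intron 4: tatgcaggaaAttttttttta
The RBM15 base held 4 tags, all of them Chtop, from 2 libraries. The METTL3 base held 2 Alyref and 2 Chtop tags from 4 libraries, and the ZC3H13 base 2 Alyref and 1 Chtop tag from 3 libraries. The RBM15B base had 3 Nxf1 tags and the YTHDC1 base 5 Alyref tags, each from 1 library, as did the VIRMA base, which lay in intron 4 and had 5 Alyref tags. No member had a base with more than 5 factor tags. Over all crosslinked bases of a factor library, 97.57% (Nxf1 replicate 3) to 99.45% (Nxf1 replicate 1) held a single tag. Few tags per base was thus not particular to these genes.

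RBM15 had the most tags to show along a stretch. Its 918 factor tags fell on 795 different bases, 697 of the tags being Chtop, 194 Alyref and 27 Nxf1. The 120-nt stretch of exon 1 with the most factor tags is printed next with every base crosslinked by the named factor in capitals. It lies in coding sequence at chr1:110884592-110884711 on the plus strand and was picked after its counts were seen.
Chtop, 34 tags: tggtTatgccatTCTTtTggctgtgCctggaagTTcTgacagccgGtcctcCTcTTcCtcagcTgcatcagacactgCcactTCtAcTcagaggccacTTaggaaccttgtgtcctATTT
Alyref, 17 tags: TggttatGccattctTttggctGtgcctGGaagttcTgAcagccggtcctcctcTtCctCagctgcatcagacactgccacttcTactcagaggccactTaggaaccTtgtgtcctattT
Both factors marked bases all along the stretch, Chtop 28 bases and Alyref 15, and 5 of these bases were shared. Over the whole gene 43 bases carried both, which was 22.6% of the Alyref bases and 6.79% of the Chtop bases. Nxf1 had 1 tag in the stretch.

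RBM15 was the most heavily tagged member in the Alyref and Chtop libraries. In Alyref it had 11, 102 and 81 tags (replicates 1 to 3), or 135, 162 and 134 CPM. In Chtop it had 15, 332 and 350 tags, or 319, 616 and 815 CPM. The lowest Chtop library thus stood above the highest Alyref library, including the shallow replicate 1. Nxf1 gave 1, 11 and 15 tags, or 123, 92.3 and 83.6 CPM, and Control 1, 3 and 1 tags, or 142, 64.3 and 27.0 CPM. The means were 583 ± 250 (SD, n = 3) for Chtop, 144 ± 15.4 for Alyref, 99.6 ± 20.7 for Nxf1 and 78.0 ± 58.9 for Control. Against Alyref the fitted Chtop difference was 2.22 on the log2 scale in edgeR, a value that chose the gene and is given without a test. In that contrast 15.7% of the 3240 genes tested were called in either direction. Against Nxf1 the Chtop difference was 2.64 and the Alyref difference 0.42, both likewise untested. Nxf1 against Control, which played no part in the choice, gave 0.79 (SE 0.73, adjusted p = 0.875, edgeR quasi-likelihood test with Benjamini-Hochberg adjustment over all genes), with overlapping libraries. In that contrast 0.0309% of genes were called, and 0.00841% of those with at least 20 tags, where no member was called.

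**Figure D1:**
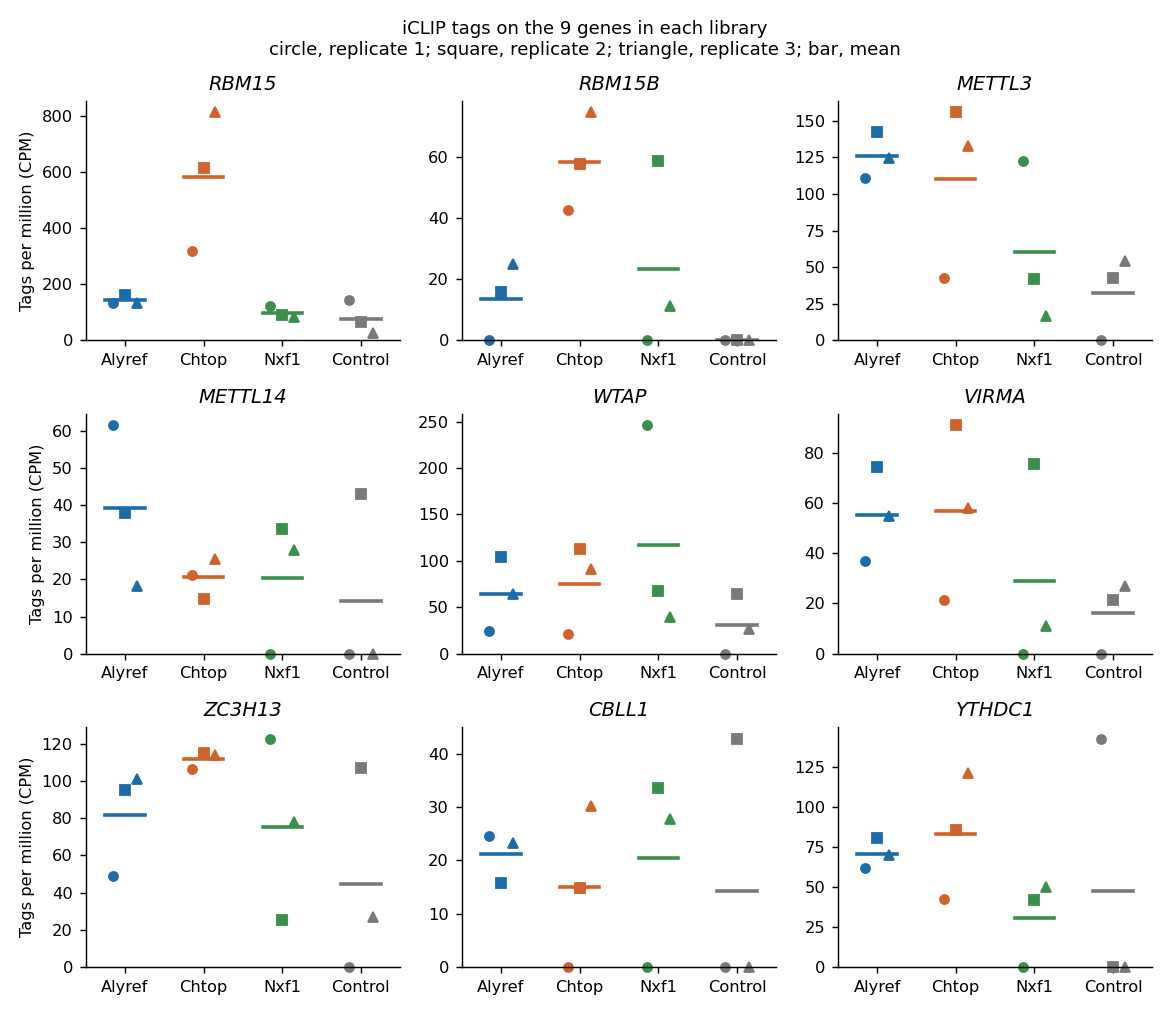
CPM on each of the 9 genes, for the 12 libraries. Each point is a library (circle, square and triangle for replicates 1, 2 and 3), each bar a group mean, and the scales differ between panels. Chtop libraries lie at 319 to 815 on RBM15, above the 134 to 162 of Alyref, and most other members overlap between groups.

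The excess of Chtop on RBM15 ran through exons and introns. Pooled over libraries, Chtop was 5.16 times Alyref on exonic bases (541 against 136 tags) and 3.49 times on intronic bases (156 against 58 tags). Exon 1, which is 2892 nt long and carries nearly all of the coding sequence, took 476 of the 697 Chtop tags (68.3%) and 115 of the 194 Alyref tags (59.3%). Exon 3, the 370-nt last exon, took 45 Chtop and 15 Alyref tags, and the 111-nt exon 2 took 3 and 1. No tag of either factor lay in the 5′ UTR of the canonical transcript. The coding sequence of 2931 nt takes up most of exons 1 and 2, so this 5′ UTR is short and few tags could fall there. In the gene body outside the canonical transcript lay 6 Chtop tags and 0 Alyref tags. Within exon 1 the tags did not crowd to an end: divided into equal parts from 5′ to 3′, Chtop replicate 2 had 53, 109 and 71 tags, Chtop replicate 3 had 68, 95 and 70, and Alyref replicate 2 had 13, 25 and 23.

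**Figure D2:**
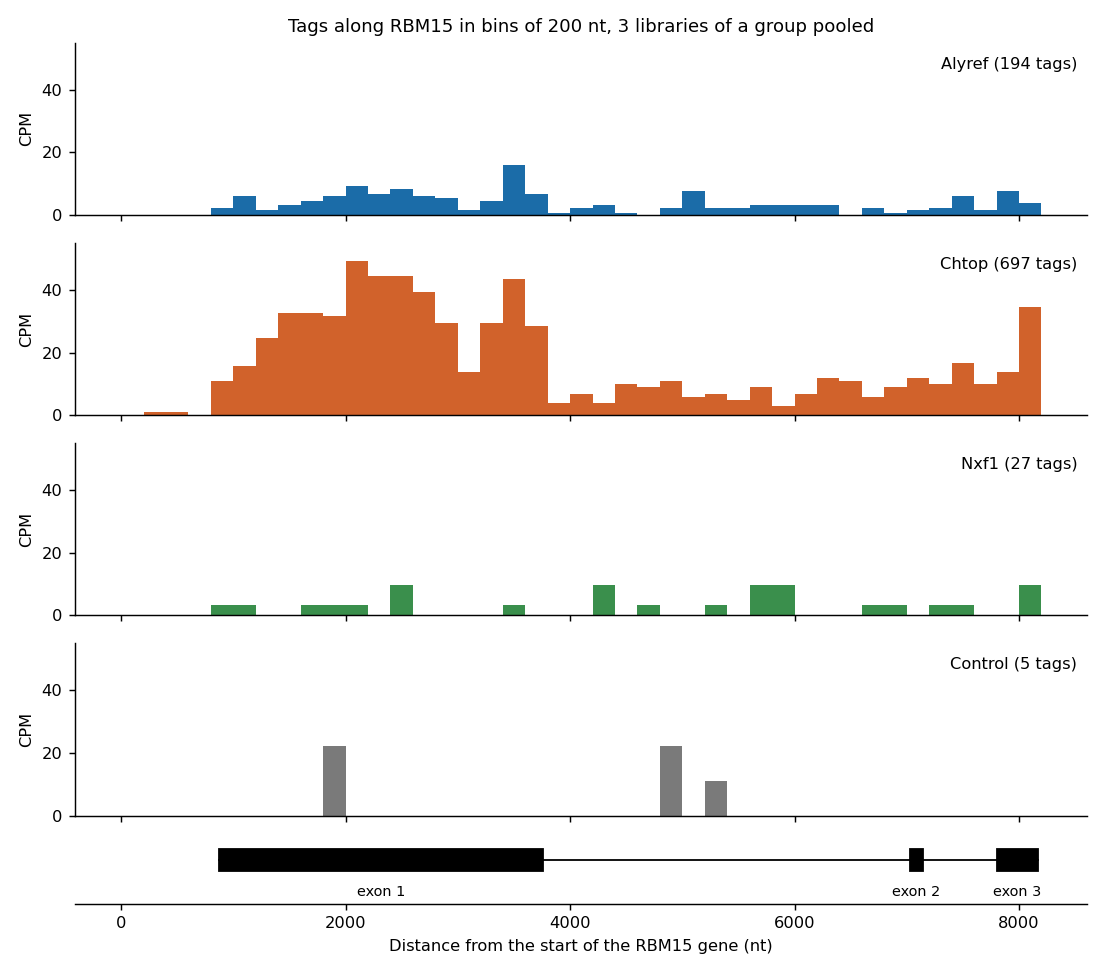
CPM in bins of 200 nt along RBM15, with the 3 libraries of each group pooled and all panels on one scale, above the exons (boxes) and introns (line) of the canonical transcript. Chtop covers exon 1 from end to end at several times the Alyref level, both continue through intron 1, and the Nxf1 and Control panels rest on 27 and 5 tags.

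The ratio of Chtop to Alyref tags was higher on long exons than on short ones across the genome, so RBM15 was set against exons of like length. The background comprised exons with at least 20 Alyref and Chtop tags together, with 0.5 tag added to each count. The median log2 ratio of Chtop to Alyref CPM was -1.21 for exons up to 100 nt, 0.06 for those up to 500 nt, 1.03 up to 1000 nt, 1.30 up to 2000 nt and 1.18 above 2000 nt. RBM15 exon 1 had a log2 ratio of 2.42, at the 97.1 percentile of 3908 exons over 2000 nt, and exon 3 had 1.93, at the 98.9 percentile of 3386 exons of over 100 and up to 500 nt. RBM15B, a single exon of 6624 nt, had a log2 ratio of 1.74 at the 81.4 percentile. The last exons of ZC3H13, YTHDC1 and WTAP had log2 ratios of 1.09, 1.02 and 1.32, at the 43.5, 39.6 and 51.3 percentiles of their classes, and those of METTL14 and CBLL1 had 0.37 and 0.28, at the 12.2 and 11.2 percentiles. The 4 METTL3 exons with enough tags ranged from 0.32 to 0.64, at the 61.3 to 75.5 percentiles. VIRMA exon 9 had 0.685 (77.4 percentile) and ZC3H13 exon 1 had -0.49 (27.8 percentile). These ratios come from the contrast that chose the list and are a description. The exons of the other members thus lay between the 11.2 and 81.4 percentiles of their classes, and the RBM15 exons stood at the 97.1 and 98.9 percentiles.

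**Figure D3:**
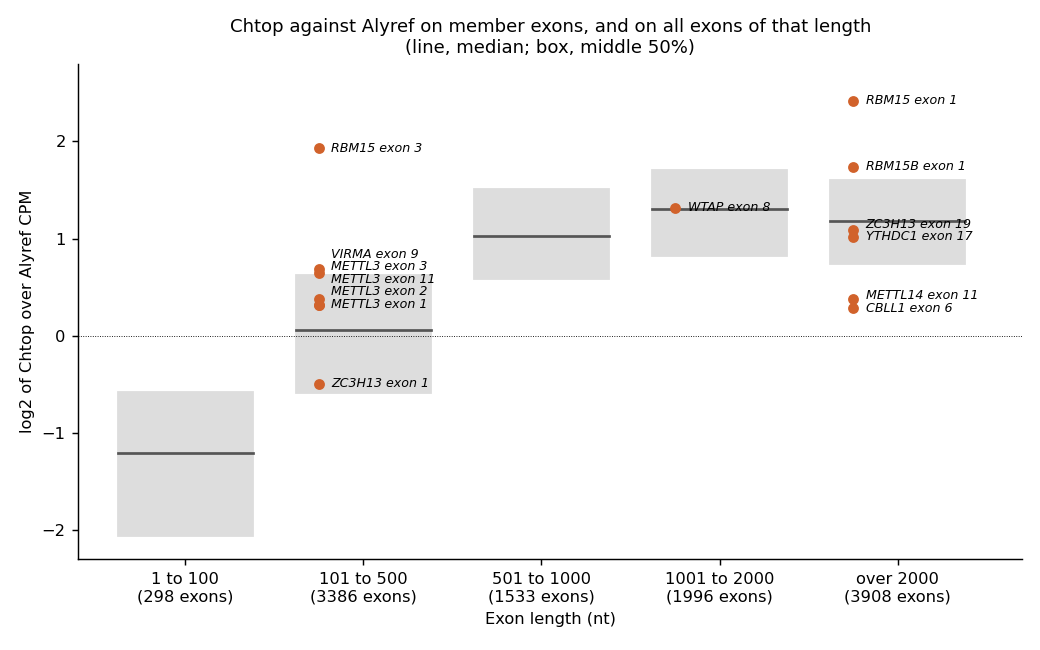
The log2 ratio of Chtop to Alyref CPM for member exons (points), by exon length, over the middle 50% (boxes) and median (lines) of all exons of that length with at least 20 tags. RBM15 exons 1 and 3 stand above the boxes at 2.42 and 1.93, and RBM15B is just above its box at 1.74, as are VIRMA exon 9 at 0.685 and METTL3 exon 3 at 0.642.

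The RBM15 introns were also densely tagged. Intron 1, at chr1:110884891-110888160, held 49 Alyref, 127 Chtop, 13 Nxf1 and 3 Control tags over 3270 nt, and intron 2, at chr1:110888272-110888929, held 14, 40, 2 and 0 over 658 nt. The 3 factors together gave 57.8 and 85.1 tags per kb, at the 99.87 and 99.94 percentiles of 179393 introns, whose median was 0.234 tags per kb. Most of these tags were Chtop, and RBM15 was picked for its Chtop tags, so its percentiles are a description. These densities were not corrected for how much of each transcript was present. The splice sites of both RBM15 introns and of the YTHDC1 intron with the most tags are printed with 10 exonic bases in capitals and 20 intronic bases in lower case.
RBM15 intron 1, 5′ splice site, chr1:110884881-110884910, plus strand: ATTGTCCGTGgtgcgtcctaaagtccatgt
RBM15 intron 1, 3′ splice site, chr1:110888141-110888170, plus strand: tttttctgtctctctcacagGGTTTGGTTT
RBM15 intron 2, 5′ splice site, chr1:110888262-110888291, plus strand: ATGATTTCAGgtaaccacagtgaaatgtta
RBM15 intron 2, 3′ splice site, chr1:110888910-110888939, plus strand: tttttccccccctccgcaagCAAAACTGGT
YTHDC1 intron 11, 5′ splice site, chr4:69188447-69188476, minus strand: ATGTGGGAAGgttagaaacgttctttggac
YTHDC1 intron 11, 3′ splice site, chr4:69185914-69185943, minus strand: aatgtgtctaatttgtgtagGCGTCGACCA
All of them open with GT, and each closes with AG. YTHDC1 intron 11, of 2543 nt, held 13 Alyref, 16 Chtop, 3 Nxf1 and 1 Control tags, or 12.6 factor tags per kb, at the 97.96 percentile. WTAP intron 6 held 16 Alyref and 19 Chtop tags over 5090 nt, at the 95.03 percentile. METTL3 introns 8 and 9 are short, 120 and 168 nt, and reached 50 and 41.7 factor tags per kb (99.84 and 99.78 percentiles) from 6 and 7 tags, those of intron 9 all Chtop. These numbered introns are those of the canonical transcript and can hold exons of other isoforms. Of the 45 Alyref and 24 Chtop tags in METTL3 introns so defined, 18 and 10 lay outside every annotated exon. Whether those of introns 8 and 9 did was not tested.

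RBM15B, the paralog of RBM15, was tagged far less. Alyref gave 0, 10 and 15 tags, or 0, 15.8 and 24.9 CPM. Chtop gave 2, 31 and 32 tags, or 42.5, 57.5 and 74.5 CPM, above every Alyref library. The lowest of these rests on 2 tags in Chtop replicate 1, where the limit of 3 tags is worth 63.8 CPM. Chtop against Alyref is again the contrast that chose the list and is only described. Nxf1 gave 0, 7 and 2 tags and Control none in any library. With 3 tags over the Control libraries as the limit (33.1 CPM), the pooled Chtop level of 64.0 was at least 1.93-fold higher than Control, while the Alyref and Nxf1 levels of 19.0 and 29.4 were under the limit. In an edgeR fit over the 11889 genes with at least 20 tags, Chtop against Control was called for RBM15B (adjusted p = 0.0301, Benjamini-Hochberg over all genes). The call held in 9 of 20 alternatives, whose adjusted p ranged from 0.0239 to 0.402. It was lost without Control replicate 1 (0.0813), 2 (0.16) or 3 (0.19), Alyref replicate 2 (0.0537) or 3 (0.0516), or Chtop replicate 3 (0.107). Of 8 members tested in that contrast, RBM15B and YTHDC1 were called, against 5.96% of all genes. The Chtop tags of RBM15B divided into 37 in coding sequence and 28 in the 3′ UTR, and the Alyref tags into 12 and 13.

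METTL3, the methyltransferase itself, was called higher with both TREX subunits than with Nxf1, on few Nxf1 tags. It had 9, 90 and 75 Alyref tags, or 111, 142 and 124 CPM. Chtop gave 2, 84 and 57 tags, or 42.5, 156 and 133 CPM. Nxf1 gave 1, 5 and 3 tags, or 123, 42.0 and 16.7 CPM, where the first value rests on a single tag and overlaps Alyref and Chtop. Control gave 0, 2 and 2 tags. In edgeR METTL3 was higher with Alyref than with Nxf1 by 1.79 on the log2 scale (SE 0.50, adjusted p = 0.0316) and higher with Chtop than with Nxf1 by 1.94 (SE 0.50, adjusted p = 0.00535). Those contrasts called 4.75% and 25.8% of the 3240 genes tested. Over genes with at least 20 tags the differences were 1.97 (adjusted p = 0.0331, edgeR) and 2.11 (adjusted p = 0.00532, edgeR), and METTL3 was the 1 member called of 8 tested, where 1.82% and 9.89% of all genes were called. For Chtop, 1 of 8 is near the share of all genes. Both calls leaned on few Nxf1 tags: in the same fit without Nxf1 replicate 3 the differences were 1.53 (adjusted p = 0.503, edgeR) and 1.72 (adjusted p = 0.167, edgeR), and within replicates 1 and 3 of all groups they were 2.15 (adjusted p = 0.815, edgeR) and 2.05 (adjusted p = 0.307, edgeR). DESeq2 did not call the Chtop difference (adjusted p = 0.0847). The Alyref call was also lost without Alyref replicate 2, Alyref replicate 3 or Nxf1 replicate 2 (adjusted p = 0.309, 0.192 and 0.0937, edgeR). Against Control METTL3 differed by 1.36 with Alyref (adjusted p = 0.333, edgeR) and by 1.50 with Chtop (adjusted p = 0.124, edgeR), neither past the threshold of 0.05. For Alyref against Control 0.123% of genes were called in that fit and 0.698% over genes with at least 20 tags, with no member called in either.

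METTL3 tags lay mostly toward the start of the transcript. Exons 1, 2 and 3 held 27, 27 and 24 Alyref tags and 26, 26 and 29 Chtop tags, and the other 8 exons held 1 to 14 and 0 to 14. The last exon, exon 11, held 14 tags of each factor. Coding sequence took 59.8% of the Alyref and 68.5% of the Chtop tags. The factors shared 21 crosslinked bases, 12.8% of the Alyref bases and 15.6% of the Chtop bases.

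**Figure D4:**
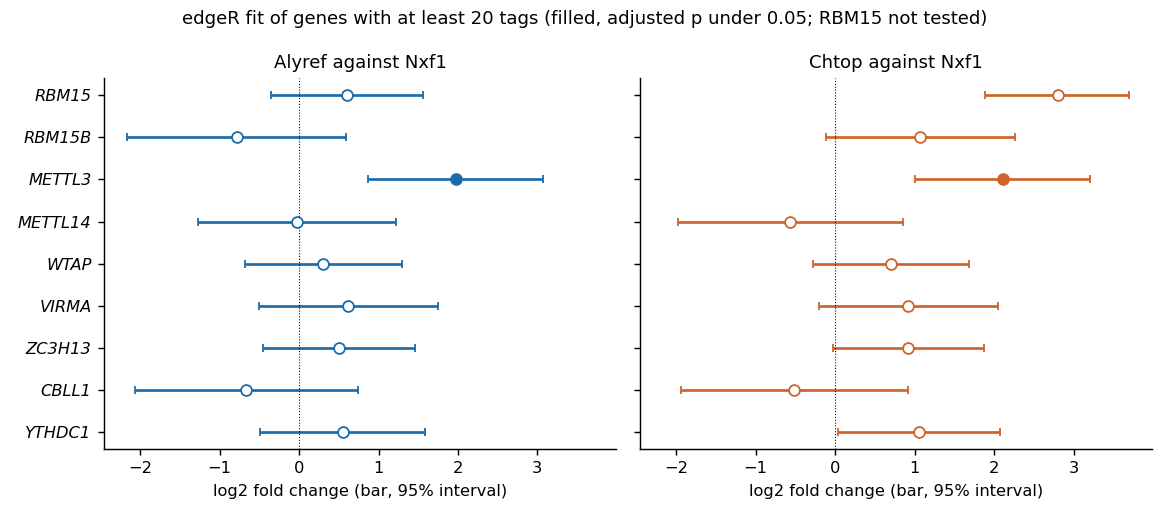
The log2 fold change of each member for Alyref against Nxf1 (left) and Chtop against Nxf1 (right), with 95% intervals, from the edgeR fit over genes with at least 20 tags. Filled points have an adjusted p under 0.05 and RBM15 was not tested. METTL3 is filled in both panels, at 1.97 and 2.11.

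METTL14, the partner of METTL3, was among the least tagged members. It had 5, 24 and 11 Alyref tags, 1, 8 and 11 Chtop tags, 0, 4 and 5 Nxf1 tags and 0, 2 and 0 Control tags. On the log2 scale the differences were -0.02 for Alyref against Nxf1 (95% interval -1.27 to 1.22) and -0.56 for Chtop against Nxf1 (95% interval -1.98 to 0.85). Its long last exon, exon 11 of 5433 nt, held 14 of the 40 Alyref and 14 of the 20 Chtop tags.

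WTAP, VIRMA and ZC3H13, the structural subunits, had similar totals with Alyref and Chtop. WTAP had 2, 66 and 39 Alyref and 1, 61 and 39 Chtop tags, VIRMA 3, 47 and 33 and 1, 49 and 25, and ZC3H13 4, 60 and 61 and 5, 62 and 49. Their fitted Chtop-to-Alyref differences were 0.40, 0.30 and 0.42 on the log2 scale over genes with at least 20 tags, in the contrast that is only described. None of the 3 was called in any tested contrast. In WTAP the last exon, of 1292 nt, held 68 of 101 Chtop tags (67.3%) and 35 of 107 Alyref tags (32.7%). Alyref had 17 tags on exons 1 to 7 of WTAP, and Chtop had 1. In VIRMA the tags lay mainly in coding sequence, 65.1% with Alyref and 77.3% with Chtop, with exon 9 the most tagged (12 and 15 tags). ZC3H13 had 15 Alyref and 8 Chtop tags on exon 1 and 23 and 38 on the last exon.

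CBLL1 was tagged as sparsely as METTL14. It had 2, 10 and 14 Alyref tags, 0, 8 and 13 Chtop tags, 0, 4 and 5 Nxf1 tags and 0, 2 and 0 Control tags, with overlapping levels in all groups. Exon 6, the last exon of 3525 nt, held 16 of 26 Alyref and 15 of 21 Chtop tags.

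YTHDC1, the reader, had 5, 51 and 42 Alyref tags, or 61.5, 80.7 and 69.6 CPM, and 2, 46 and 52 Chtop tags, or 42.5, 85.4 and 121 CPM. Control had 1 tag in all, in the shallow replicate 1, where it was worth 142.5 CPM, above every Chtop library. Chtop against Control was called in edgeR over genes with at least 20 tags (log2 difference 3.43, SE 1.09, adjusted p = 0.0354). Because of the single Control tag, the ratio of pooled levels was 8.92 with an exact 95% counting interval of 1.57 to 356. The call did not survive leaving out Chtop replicate 3 (adjusted p = 0.161), Control replicate 2 (0.243), Control replicate 3 (0.261), Alyref replicate 2 (0.0676) or Alyref replicate 3 (0.0652).

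In YTHDC1 the Nxf1 tags lay in introns alone. Nxf1 gave 0, 5 and 9 tags, and all 14 fell in introns (Wilson 95% interval 78.5% to 100%), whereas 60 of 98 Alyref tags and 68 of 100 Chtop tags were exonic. The single Control tag was intronic as well. With 3 tags as the limit, the exonic Nxf1 level was under 9.78 CPM, at least 4.66-fold lower than Alyref (45.6) and at least 6.84-fold lower than Chtop (67.0). In the edgeR fit on exonic tags of genes with at least 20 of them, Alyref against Nxf1 and Chtop against Nxf1 were called for YTHDC1 (adjusted p = 0.0159 and 0.00449), where 5.6% and 11.2% of the 9567 genes in that fit were called. Both calls were lost without Nxf1 replicate 2 (adjusted p = 0.19 and 0.0972) or Nxf1 replicate 3 (0.155 and 0.0609), that of Alyref also without Alyref replicate 2 (0.0792), and that of Chtop in DESeq2 (0.117). Among protein-coding genes with introns and 10 to 20 Nxf1 tags, 5.95% of 2974 had no exonic Nxf1 tag either. The last exon, exon 17, had 26 Alyref, 41 Chtop and 0 Nxf1 tags.

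Intron shares of the other spliced members followed the same order of factors when libraries were pooled. RBM15 had 29.9% of its Alyref, 22.4% of its Chtop and 55.6% of its Nxf1 tags in introns. METTL3 had the lowest shares, with 10.3%, 6.99% and 22.2%, the last from 9 tags. Counting introns of the canonical transcript alone raised its Alyref and Chtop shares to 25.9% and 16.8%, and those of WTAP to 46.4% and 31.7%. WTAP had 33.6%, 17.8% and 47.1%, VIRMA 28.9%, 17.3% and 45.5%, and METTL14 30.0%, 25% and 55.6%. ZC3H13 had 37.6%, 33.6% and 83.3%, and CBLL1 23.1%, 14.3% and 44.4%. With all libraries pooled, the share was highest with Nxf1 and lowest with Chtop of the 3 factors in the 8 spliced members. The same held for the medians over protein-coding genes with at least 20 tags of the factor, which were 40.0%, 24.6% and 65.6%, so the order was not particular to these genes. Control, on few tags, reached or passed the Nxf1 share in each of these members but METTL14 (50%). It had 60% for RBM15 (5 tags) and 100% for WTAP (4 tags). The Control median was 90% over 381 protein-coding genes, so a high intron share was not particular to Nxf1. METTL3 stood at the 8.44 percentile of genes with Alyref and at the 11.8 percentile with Chtop. One library carried much of the Nxf1 intron signal: without Nxf1 replicate 3 the Nxf1 shares were 25% for ZC3H13, 20% for WTAP and 0% for METTL3, each below its Alyref share, while that of YTHDC1 remained 100%. Chtop shares also moved with single libraries. Without Chtop replicate 2 they were 15.3% for METTL3, above its Alyref share, and 7.5% for WTAP, 7.69% for VIRMA and 7.69% for CBLL1. Without Chtop replicate 3 they were 1.16% for METTL3, and 33.3% for METTL14, 38.8% for ZC3H13 and 25% for CBLL1, each of these 3 above its Alyref share. Without Alyref replicate 1 the Alyref share of METTL14 was 20%, below its Chtop share, and without Alyref replicate 2 it was 50%. The order of factors held whichever library was left out in RBM15, VIRMA and YTHDC1.

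**Figure D5:**
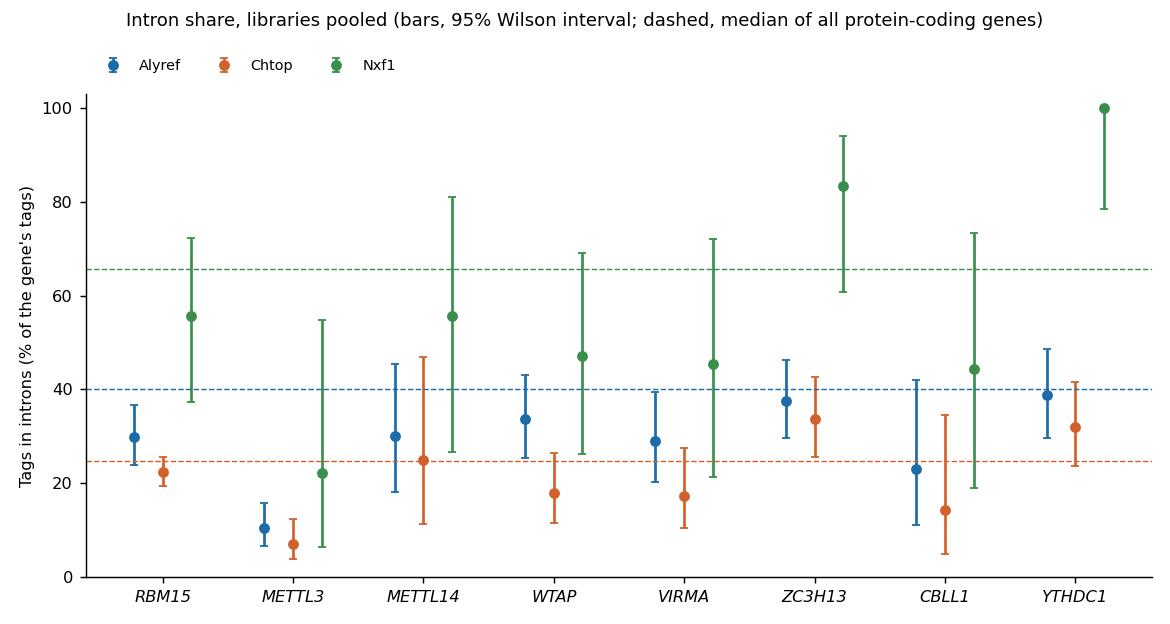
The percentage of each gene's tags that lay in introns, with the 3 libraries of a group pooled, 95% Wilson intervals that cover counting error only, and the median over all protein-coding genes with at least 20 tags as dashed lines. Of the 3 factors, Nxf1 lies highest and Chtop lowest in each of the 8 genes, and all 14 Nxf1 tags of YTHDC1 are intronic. Control, with few tags, is not drawn.

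Per length of exon, with the exons of all isoforms merged, the order of members was alike with Alyref and Chtop at its top. As exonic CPM per kb, RBM15 led with 23.3 ± 3.05 (SD, n = 3) with Alyref and 97.1 ± 38.6 with Chtop. METTL3 followed with 19.2 ± 2.72 and 17.5 ± 9.60, and WTAP came next with 6.49 ± 4.87 and 9.90 ± 5.70. With Alyref, RBM15 and METTL3 differed by slightly more than their SDs and both stood clear of the rest. Merged exons came to 4670 nt in RBM15 and 5863 nt in METTL3, against 3373 and 1980 nt in their canonical transcripts. Levels per canonical length were not computed, so the lead of RBM15 over METTL3 with Alyref holds for merged exons only. From WTAP down, neighbours in the order differed by less than the larger of their SDs, ending with RBM15B at 2.05 ± 1.90 CPM per kb. With Chtop, RBM15 stood clear of METTL3, and neighbours below it overlapped within their SDs, ending with CBLL1 at 2.39 ± 2.58. The Nxf1 order, from WTAP at 15.7 ± 19.9 to YTHDC1 at 0, rested on too few tags to separate neighbours.

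SPEN, the other large protein of the RBM15 family, had 44, 410 and 335 Alyref tags and 33, 533 and 587 Chtop tags. It was higher with Chtop than Control by 2.13 on the log2 scale (SE 0.49, adjusted p = 0.00583, edgeR), where 14.6% of genes were called, and was not called in the other tested contrasts.

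Of 18 further m6A genes (erasers, readers and other methyltransferases), 14 were tested in the fit of 3240 genes. In that fit they were called at about the rate of all genes. The calls were 2 of 14 for Chtop against Control, where 14.6% of all genes were called, and 4 of 14 for Chtop against Nxf1, where 25.8% were. With Chtop against Control, YTHDC2 and YTHDF3, both m6A readers, were higher by 2.24 (SE 0.57, adjusted p = 0.0106, edgeR) and 2.23 (SE 0.71, adjusted p = 0.0316, edgeR), and the median difference over the 14 was -0.02, against 0.16 over all genes. With Chtop against Nxf1, YTHDF3 and YTHDC2 were higher by 1.14 (adjusted p = 0.0344, edgeR) and 1.01 (adjusted p = 0.0372, edgeR). In the same contrast FTO, an m6A demethylase, was lower, by -1.29 (adjusted p = 0.024, edgeR), as was IGF2BP2, a cytoplasmic reader, by -1.47 (adjusted p = 0.00397, edgeR). None of the 14 was called for Alyref against Control, Alyref against Nxf1 or Nxf1 against Control in that fit. Over genes with at least 20 tags YTHDC2 and FTO lost the calls for Chtop against Nxf1 (adjusted p = 0.0526 and 0.0646, edgeR), which left 2 of 18, where 9.89% of all genes were called. In that fit YTHDC2 was called higher with Alyref than Control (adjusted p = 0.0442, edgeR) and YTHDF1 with Chtop than Control (adjusted p = 0.0256, edgeR). These made 1 of 18 for Alyref against Control, where 0.698% of all genes were called. For Chtop against Control 3 of 18 were called, where 5.96% of all genes were, and the list was not tested as a set.

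The genes whose level moved most like RBM15 over the 12 libraries, by Pearson correlation of log2 CPM over 3240 genes, were ENSG00000242588 (r = 0.955), BIRC6 (r = 0.917), NFAT5 (r = 0.902), NRP1 (r = 0.901) and NSD2 (r = 0.898). The 99th percentile of all genes was 0.837. The points share library depth, and the Chtop-to-Alyref differences of these 5 genes, 0.41 to 1.21 on the log2 scale, were below the 2.22 of RBM15.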

How the data were processed

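The deposited values are counts: for each library, every crosslinked base with its strand and its number of deduplicated reads. The authors removed phiX reads (Bowtie 1.1.2), handled molecular barcodes with UMI-tools 0.5.3, demultiplexed with Reaper and aligned to hg19 with STAR 2.4.2a, per their methods and processing notes. Lane runs (32) belong to 12 libraries. All per-sample columns were used (0 left out), and the pooled files were not.

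Tags were assigned on their strand to GENCODE release 44 genes on GRCh37, and those in more than 1 gene (5.97% to 8.32% of a library) were left out of gene counts. Introns are bases in no exon of any isoform, and numbered exons and introns are those of the canonical transcript. Counts were tested in edgeR 4.0.16 (R 4.3.3; TMM, filterByExpr, quasi-likelihood test over all 4 groups, adjusted p threshold 0.05), which kept 3240 genes and 3 members (RBM15, METTL3, ZC3H13). The other members were read from the fit over genes with at least 20 tags. The code was tested on simulated counts. Alternatives included DESeq2 1.42.0. The fits within replicates 1 and 3 and the repeats of the exonic YTHDC1 fit were added after seeing the data. Intervals are Wilson 95% and cover counting error. Members and lists were chosen with earlier results of these data known. Named were all members, SPEN, pathway genes past the threshold, the 5 genes most like RBM15, and the base, exon and intron with most tags. Genome sequence is GRCh37.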

Additional observations from a re-analysis of the deposited data

How the results depend on the processing

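Depth was a limit: 6 of the 9 members did not pass the default filter on low counts, Control held 26 tags on all members together, and replicate 1 of each group was shallow. The number of genes called moved with the settings, and the cause was not tested beyond the change in the genes tested. For Alyref against Control it was 4, and 11 without TMM scaling, 13 in DESeq2, 83 with at least 20 tags, 25 with no filter, 0 with tags of overlapping genes counted for each, 35 on exonic tags, 10 with each base counted once and 117 without replicate 1 of all groups (0 to 76 leaving out 1 library). For Chtop against Control it was 474, and 226 in DESeq2, 149 on exonic tags and 790 without replicate 1 of all groups (118 to 626 leaving out 1 library). For Nxf1 against Control it was 1, and 0 with no filter, with overlapping genes, on exonic tags and with each base counted once, and 2 without replicate 1 of all groups (0 to 2 leaving out 1 library). For Alyref against Nxf1 it was 154, and 23 in DESeq2, 98 with no filter, 277 on exonic tags and 388 without replicate 1 of all groups (3 without Nxf1 replicate 2 to 249 leaving out 1 library). For Chtop against Nxf1 it was 837, and 254 in DESeq2, 421 on exonic tags and 1610 without replicate 1 of all groups (179 without Nxf1 replicate 3 to 1133 leaving out 1 library). With the replicate block the 5 counts were 69, 536, 3, 179 and 801, and no call on a member changed. Within replicates 1 and 3 of all groups, which share HiSeq lanes but not the MiSeq run, the 5 counts were 0, 33, 0, 0 and 3 of 1524 genes in edgeR. This subset was chosen after seeing the data. At an unadjusted p under 0.05 in the same edgeR fit the counts were 183, 378, 66, 108 and 352. Every call on a member was lost within these replicates. Same-numbered libraries correlated in their deviations at -0.18 to 0.25 (18 pairs, 7 over 0.1), so the numbers were not taken to pair the samples. Yet 9 of 12 libraries were nearest to one of their own number, a hint of shared deviation, and the number goes with the sequencing runs.

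Among the members, METTL3, YTHDC1 and RBM15B changed calls. RBM15B lost Chtop against Control in edgeR without TMM scaling (adjusted p = 0.0884), with no filter (0.0639), on exonic tags (0.118) and without replicate 1 of all groups (0.0515), and DESeq2 gave it no adjusted p. Within replicates 1 and 3 of all groups the adjusted p was 0.402 for RBM15B, 0.481 for YTHDC1 (2.29), and 0.571 (Alyref) and 0.255 (Chtop) for YTHDC1 against Nxf1 on exonic tags. There RBM15B turned for Alyref against Nxf1 (0.613), WTAP likewise (-0.225), and VIRMA for Nxf1 against Control (-0.636), none called. METTL3 lost its Alyref call with no filter (2.03 on the log2 scale, adjusted p = 0.0792, edgeR) and its Chtop call over Nxf1 in DESeq2 (1.71), and, with at least 20 exonic tags, in edgeR (1.49, adjusted p = 0.0887). For Alyref against Nxf1 DESeq2 gave METTL3 no adjusted p. Leaving out the larger Alyref, Chtop or Nxf1 libraries took METTL3 below the default filter, so the fit with at least 20 tags stands in. YTHDC1 lost Chtop against Control without TMM scaling (2.81, adjusted p = 0.128, edgeR), with no filter (3.51, 0.0776) and on exonic tags (6.67, 0.109). All sign changes were in differences that no setting called. METTL14 turned for Chtop against Control without TMM scaling (-0.39), without replicate 1 of all groups (-0.13) and in DESeq2 (-0.29), with -0.40 to 5.38 leaving out 1 library, and for Alyref against Nxf1 with overlapping genes (0.0055), exonic tags (0.0615) and no filter (0.0436), with -0.21 to 0.42. WTAP turned for Alyref against Nxf1 in DESeq2 (-0.22), with -0.18 to 0.42, and VIRMA ranged from -0.0862 to 2.25 there and from -0.60 to 1.72 for Nxf1 against Control. ZC3H13 turned for Nxf1 against Control with at least 20 tags (0.25) and no filter (0.22), with -0.25 to 1.56. CBLL1 turned for Alyref against Control without TMM scaling (-0.38), without replicate 1 of all groups (-0.25) and in DESeq2 (-0.36), with -0.50 to 5.28, and for Chtop against Control without TMM scaling (-0.34) and in DESeq2 (-0.38), with -0.44 to 5.43. RBM15B ranged from -1.43 to 0.56 for Alyref against Nxf1, and METTL3 from -0.63 to 0.0806 for Nxf1 against Control. The Chtop-to-Alyref difference of RBM15 moved by less than the spread between libraries in every alternative run.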

Other observations

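Crosslinked bases in the members were mostly uridines. In RBM15, 57.2% of Alyref tags (Wilson 95% interval 50.2% to 64.0%), 54.7% of Chtop tags (51.0% to 58.3%) and 63.0% of Nxf1 tags (44.2% to 78.5%) lay on U, where 29.8% of the bases of the gene body are U. In the other 8 members together the shares were 57.8%, 57.4% and 60.4%, and the gene bodies hold 21.6% (RBM15B) to 35.1% (ZC3H13) U. Control tags were on U in 19 of 26 cases (73.1%). Gene bodies include introns, while most Alyref and Chtop tags of RBM15 were exonic, and the U share of exons alone was not computed. UV crosslinking is known to favour U, and the part of this in the shares was not tested. RBM15B shared no crosslinked base between Alyref and Chtop, with 25 and 62 bases marked. The same was true of METTL14, with 39 and 20 bases, and of CBLL1, with 26 and 20. With so few marked bases a count of 0 tells little. The shared bases of the members were not set against those of other genes.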
